A study of Mus musculus with 6 samples.

Results

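The 40 genes described here build and run the mitotic spindle, attach chromosomes to it and divide the cell afterwards. They were chosen by name, with no threshold on their values, although earlier results of these data were known. They are transcription factors of the G2 and M phases, cyclins and CDKs, mitotic kinases, spindle checkpoint proteins, anaphase regulators, kinetochore proteins, spindle motors, central spindle proteins and 2 proliferation markers. On the array they had 56 probes in 65 spots, of 55681 probes in 59305 non-control spots. The samples were 3 1G11-mock and 3 1G11-SOD3 cultures, described as biological replicates. 1G11 is a mouse microvascular endothelial cell line (strain C57BL/6NCrLBR), and 1G11-SOD3 cells are the same line made to overexpress SOD3, an extracellular enzyme that removes superoxide. For 6 h before RNA was taken, both kinds of cell were given medium from N202.1A cultures, a mouse mammary cancer line, so no array shows cells without that medium. How SOD3 was introduced, and whether 1G11-SOD3 is 1 clone, was not given in the sources used here.

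At the entry into mitosis, cyclin B and CDK1 form the kinase that drives chromosome condensation and spindle assembly. Kinetochores, protein plates built on the centromeres, bind spindle microtubules, and the spindle checkpoint holds the cell until all of them are attached. The anaphase-promoting complex then marks securin and cyclin B for destruction, the sister chromatids part, and the central spindle directs the cleavage furrow. Most of these genes are transcribed in G2 and M, so in bulk RNA a change in the share of dividing cells and a change in the RNA of each dividing cell cannot be told apart.

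All 6 arrays lay on 1 slide, with the 1G11-SOD3 arrays in slide row 1, the 1G11-mock arrays in slide row 2 and replicates 1 to 3 in the same column of both, so slide row and cell line cannot be told apart. Between 34.2% and 43.8% of the spots of an array were well above background and none was saturated. A rectangle of 6606 spots around the centre, called here the middle of the array, read dim on the 1G11-mock arrays. The 5 member probes printed there are therefore given apart from the 51 outside. The Sod3 probe also lay in the middle, where its log2 intensity was 13.61, 12.66 and 9.86 in 1G11-mock replicates 1 to 3 and 16.37, 16.30 and 16.26 in 1G11-SOD3. That difference, 4.27 ± 0.70 (SE, limma adjusted p = 0.0076), was larger than the spread between replicates and remained at 2.77 ± 0.50 (adjusted p = 0.0154) once each spot was set against its bright neighbours. The targeted gene thus read as the labels say, in all 6 arrays.

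Outside the middle, 37 of the 40 genes had a probe, and the brightest probe of each gene was used. Their values leaned upward in 1G11-SOD3 cells, but single genes hardly ever passed the test. Their median log2 fold change was 0.34 (quartiles 0.13 and 0.61), and 0.35 over the 33 of them well above background on every array, beside -0.06 over all 33869 genes measured there and -0.16 over the 12435 genes well above background on every array. It was above 0 in 30 of the 37 (81.1%), against 43.3% of all genes. A gene was called when its change was at least 2-fold with a Benjamini-Hochberg adjusted p under 0.05 in limma. By that rule 1 of the 37 rose, Cdk1, where 0.836% of all genes rose, and 0 fell, where 1.41% of all genes fell. At an unadjusted p under 0.05, 9 of the 37 differed, against 13.9% of all genes. In 7 of the 37 (18.9%) all 3 1G11-SOD3 arrays were above all 3 1G11-mock arrays, against 8.39% of all genes, and in 0 were they all below. With 3 arrays against 3, an exact permutation test of a single gene cannot give a 2-sided p below 0.1.

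Each array also had a slow change of intensity over its surface. A second set of values, called position adjusted, was made by setting every spot against the median of its 200 nearest bright spots. On that scale the median of the 37 genes was 0.53, beside 0.08 over all genes and 0.01 over those well above background, and 33 of the 37 (89.2%) were above 0, against 58.4% of all genes. In 12 of the 37 (32.4%) the groups did not overlap, with 1G11-SOD3 higher, against 17.2% of all genes. They were Ccna2, Cdk1, Birc5, Ttk, Cdc20, Pttg1, Cenpf, Kif2c, Tpx2, Kif20a, Kif23 and Ect2. Of these, Ttk, Cenpf and Pttg1 were not well above background on any 1G11-mock array. Among the 33 members well above background on every array it was 9 (27.3%), against 14.0% of all such genes. Statements on overlap of single genes below refer to the values without position adjustment, unless said otherwise. None of the 37 was called in limma, where 1.15% of all genes were called higher and 0.948% lower, and none when the replicate number was added as a block, where 1.34% of all genes were called higher. At an unadjusted p under 0.05, 14 of the 37 differed, against 17.4% of all genes, and 17 with the block, against 18.2%.

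**Figure D1:**
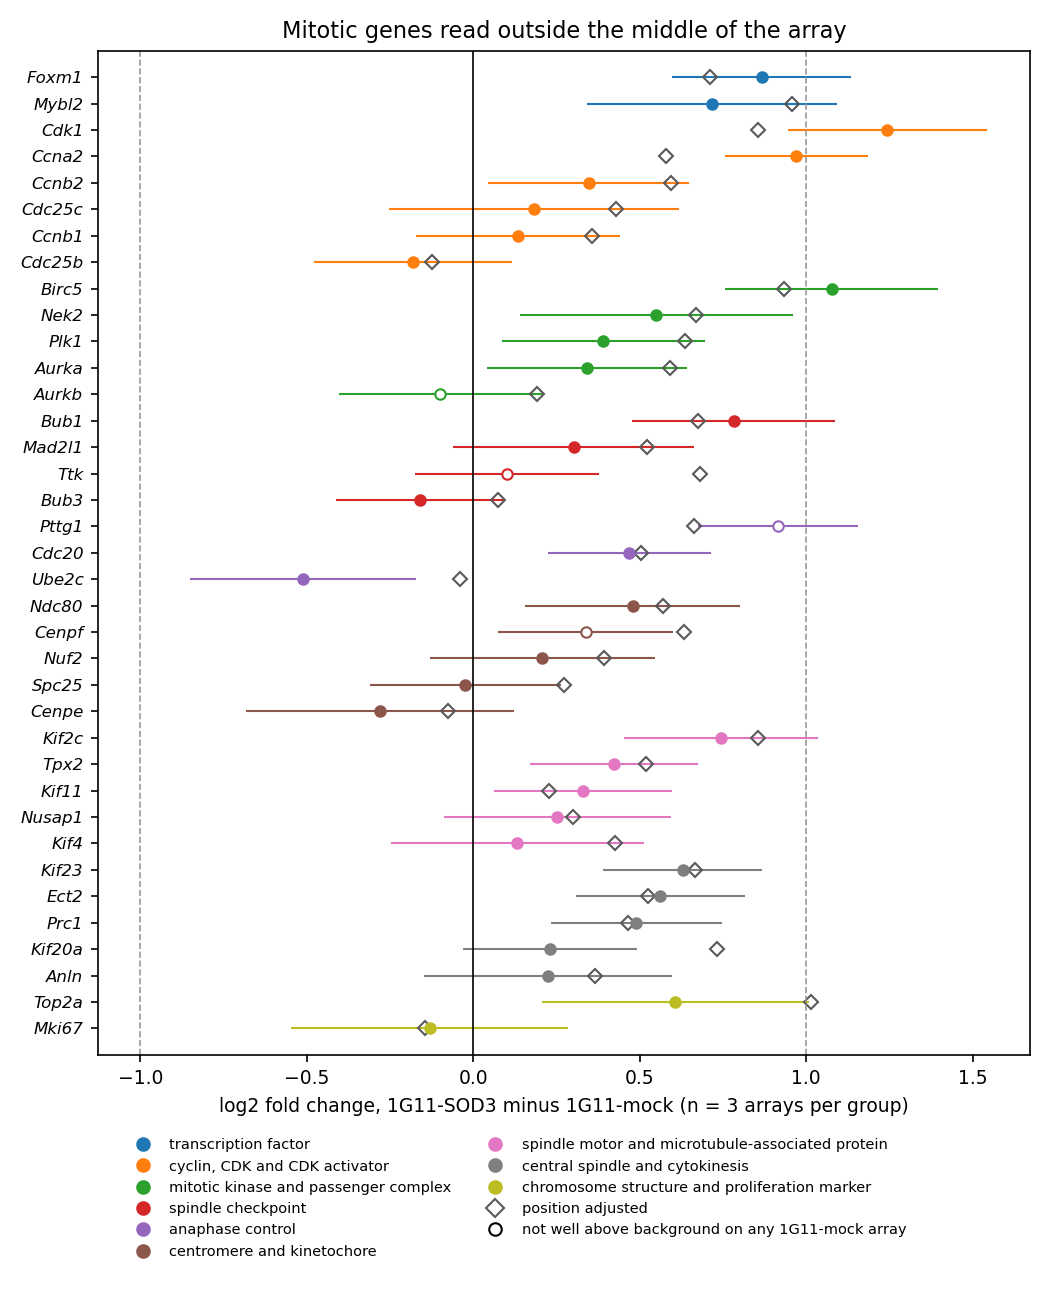
Log2 fold change (1G11-SOD3 minus 1G11-mock, n = 3 arrays per group) of the 37 mitotic genes with a probe outside the middle, grouped by role. Circles with bars are the limma estimate ± SE, open diamonds the position-adjusted estimate, and dashed lines mark a 2-fold change; hollow circles (Aurkb, Ttk, Cenpf and Pttg1) are probes not well above background on any 1G11-mock array, whose measured values are no folds. The circles run from -0.51 for Ube2c to 1.24 for Cdk1, and 30 of 37 are above 0.

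Of the transcription factors, both read higher in 1G11-SOD3 cells without passing the test. Foxm1, which drives transcription of G2 and M genes, had log2 intensities of 11.60, 12.01 and 12.44 on the 1G11-mock arrays and 13.14, 12.91 and 12.60 on the 1G11-SOD3 arrays. The groups did not overlap, and the difference was 0.87 ± 0.27 (SE, n = 3 per group, limma adjusted p = 0.132). Mybl2, the B-Myb factor that acts with Foxm1 on the same class of promoters, differed by 0.72 ± 0.38 (adjusted p = 0.425). A further probe of each gene gave 0.59 for Foxm1 and 0.73 for Mybl2, both with overlapping groups. Position adjusted, the first Foxm1 probe gave 0.71 (adjusted p = 0.170), and there its groups overlapped. The further Foxm1 probe gave 0.84 (adjusted p = 0.0779), with groups that did not overlap. On that scale the first Mybl2 probe gave 0.96 (adjusted p = 0.142) with overlapping groups. The further Mybl2 probe gave 0.99 (adjusted p = 0.0820) without overlap.

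Among the cyclins, CDK1 and its activators, Cdk1 and Ccna2 stood highest. Cdk1, the catalytic subunit of the mitotic kinase, read 10.68, 9.68 and 10.83 in 1G11-mock and 11.74, 11.66 and 11.53 in 1G11-SOD3. All 1G11-SOD3 arrays were above all 1G11-mock arrays, and Cdk1 rose by 1.24 ± 0.30 on the log2 scale, 2.37-fold (adjusted p = 0.0494), just inside the threshold. Position adjusted, the estimate was 0.86 ± 0.32 (adjusted p = 0.163), so the call did not hold there. Ccna2, cyclin A2, read 13.45, 13.75 and 13.52 in 1G11-mock and 14.53, 14.49 and 14.61 in 1G11-SOD3, the tightest separation of the group. Its difference of 0.97 ± 0.21 had the lower adjusted p, 0.0335, but was under 2-fold, and position adjusted it was 0.58 (adjusted p = 0.190). The mitotic cyclins gave 0.35 ± 0.30 for Ccnb2 and 0.13 ± 0.31 for the brightest Ccnb1 probe. Of the phosphatases that activate CDK1, Cdc25c gave 0.18 ± 0.44 and Cdc25b -0.18 ± 0.30. For these 4 genes the 1G11-mock and 1G11-SOD3 arrays overlapped.

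Of the mitotic kinases and the passenger complex, Birc5 differed most. Birc5, survivin, the passenger complex subunit that guides Aurora B to centromeres, read 11.03, 11.73 and 12.43 in 1G11-mock and 12.85, 12.87 and 12.70 in 1G11-SOD3. The groups did not overlap, and the difference was 1.08 ± 0.32 (adjusted p = 0.113). A dimmer Birc5 probe outside the middle gave 1.13 ± 0.39 (adjusted p = 0.192), with overlapping groups. Nek2, a kinase of centrosome separation, gave 0.55 ± 0.41, Plk1, polo-like kinase, 0.39 ± 0.30 and Aurka, the spindle pole kinase Aurora A, 0.34 ± 0.30. In all 3 the groups overlapped. Aurkb, the Aurora kinase of the passenger complex, was well above background on 0 of the 6 arrays, so no fold is given for it.

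The spindle checkpoint genes gave differences from -0.16 to 0.78, and 0 of the 4 read outside the middle was called. Bub1, a checkpoint kinase of the kinetochore, had the highest, 0.78 ± 0.31 (adjusted p = 0.256), as the mean of 10 spots. Mad2l1, the Mad2 inhibitor of anaphase, gave 0.30 ± 0.36, and its 2 other probes gave 0.70 and 0.27. Bub3, which brings checkpoint proteins to the kinetochore, gave -0.16 ± 0.25. Ttk, the Mps1 kinase, was well above background on 0 of the 1G11-mock arrays and 1 of the 1G11-SOD3 arrays, so no fold is given for it either.

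In the control of anaphase the values ran from -0.51 to 0.91, and position adjusted from -0.04 to 0.66. Cdc20, the activator of the anaphase-promoting complex, gave 0.47 ± 0.25 with overlapping groups. Ube2c, the ubiquitin-conjugating enzyme of that complex, read 13.83, 14.52 and 15.08 in 1G11-mock and 14.35, 14.10 and 13.44 in 1G11-SOD3. Its difference of -0.51 ± 0.34 (adjusted p = 0.551) was the lowest of the 37, while its other probe gave 0.93 ± 0.27 (adjusted p = 0.106). Position adjusted, these 2 Ube2c probes gave -0.04 and 0.66, and their bright neighbours differed by -0.50 and 0.23. Pttg1, securin, the inhibitor of the enzyme that cuts cohesin, had a probe outside the middle that was not well above background on any 1G11-mock array (7.66, 7.74 and 7.73) and was so on all 1G11-SOD3 arrays (8.77, 8.89 and 8.22). Set against the lowest signal well above background, its mean in 1G11-SOD3 was 1.45-fold higher, a bound that carries no error of its own. The measured difference of 0.91 had an adjusted p of 0.0708 and was not called. Its bright neighbours differed by 0.43, and position adjusted it gave 0.66 (adjusted p = 0.121).

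The kinetochore genes gave values from -0.28 to 0.48 outside the middle, and none was called. Ndc80 and Nuf2, partners in the complex that grips microtubules, gave 0.48 ± 0.32 and 0.21 ± 0.34, and Spc25 of the same complex -0.02 ± 0.29. Cenpe, a kinetochore motor, gave -0.28 ± 0.40. Cenpf, a large protein of the outer kinetochore, was well above background on only 1 of the 6 arrays, of 1G11-SOD3 cells, and no fold is given for it. The groups overlapped in all 5 genes. Position adjusted, Ndc80 gave 0.57, Nuf2 0.39, Spc25 0.27 and Cenpe -0.08, again without a call.

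All 5 spindle motors and microtubule-associated proteins read outside the middle were above 0, and 0 was called. Kif2c, which takes microtubule ends apart at the centromere, gave 0.74 ± 0.29 (adjusted p = 0.258). Its other probe gave 0.47 ± 0.24 (adjusted p = 0.414), with groups that did not overlap. Tpx2, the activator of Aurora A on the spindle, gave 0.42 ± 0.25 and Kif11, the motor that pushes spindle poles apart, 0.33 ± 0.27. Nusap1, which bundles spindle microtubules, gave 0.25 ± 0.34 and Kif4, a chromosome-bound motor, 0.13 ± 0.38. In the brightest probe of each of them the groups overlapped.

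The 5 central spindle and cytokinesis genes were also all above 0 without a call. Kif23, a motor of the central spindle, read 9.85, 10.30 and 9.93 in 1G11-mock and 10.94, 10.44 and 10.58 in 1G11-SOD3, a difference of 0.63 ± 0.24 (adjusted p = 0.240). Ect2, the factor that activates RhoA at the furrow, read 11.41, 11.49 and 11.24 against 11.60, 11.84 and 12.40, a difference of 0.56 ± 0.25 (adjusted p = 0.341). In both the groups did not overlap. Prc1, which bundles microtubules of the midzone, gave 0.49 ± 0.26, Kif20a, a motor of the midzone, 0.23 ± 0.26 and Anln, the furrow protein anillin, 0.22 ± 0.37, each with overlapping groups.

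The 2 genes most often used to mark dividing cells did not separate the groups. Mki67, the Ki-67 antigen, read 14.14, 14.73 and 14.81 in 1G11-mock and 13.67, 14.07 and 15.54 in 1G11-SOD3. Its difference was -0.13 ± 0.42 (adjusted p = 0.926), and its other probe gave 0.50 ± 0.42. Top2a, topoisomerase II alpha, which untangles chromosomes, gave 0.61 ± 0.40 and, position adjusted, 1.01 ± 0.39 (adjusted p = 0.170). Both genes had their highest value on 1G11-SOD3 replicate 3.

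The mitotic genes moved together from array to array, and the 1G11-mock arrays differed among themselves more than the groups did. The median deviation of the 37 genes from their own means over the 6 arrays was -0.59, -0.24 and 0.29 on 1G11-mock replicates 1, 2 and 3. It was 0.14, 0.15 and 0.34 on 1G11-SOD3 replicates 1, 2 and 3. The 1G11-mock replicate 3 thus lay within the range of the 1G11-SOD3 arrays, and only the other 1G11-mock arrays lay below it. Over the 12435 genes well above background the same medians ran only from -0.09 to 0.18. The 1G11-mock replicate 1 was the lowest of the 6 arrays for 28 of the 37 genes. Of the 33 members well above background on every array it was the lowest for 75.8%, against 14.3% of all such genes. Lists of other genes of the same machinery, described below, shared this in part. There it was the lowest for 57.1% of the kinetochore, centromere and passenger genes and 47.8% of the spindle, midzone and cytokinesis genes. The lowest share among these lists was 13.3%, for the anaphase-promoting complex genes. Position adjusted, the medians were -0.63, -0.31 and 0.21 in 1G11-mock and 0.23, 0.17 and 0.35 in 1G11-SOD3. The median SD between replicates of those 33 members was 0.57 in 1G11-mock and 0.29 in 1G11-SOD3, beside 0.29 and 0.28 over all such genes.

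Compared with the 1G11-mock array of the same number, the 1G11-SOD3 array read higher by a median of 0.78 and 0.35 in replicates 1 and 2, with 34 and 29 of the 37 genes above 0. In replicate 3 the median difference was -0.06, and 16 of the 37 were above 0. Over the 12435 genes well above background the same 3 medians were -0.09, -0.12 and -0.26, with 43.9%, 41.5% and 33.5% above 0. Position adjusted, the mitotic genes gave 0.83, 0.54 and 0.12, with 36, 31 and 22 of the 37 above 0. Of the genes well above background 49.5%, 48.5% and 50.6% were above 0 there.

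Leaving out single 1G11-mock arrays moved the size of the group difference. Without 1G11-mock replicate 1 the median over the 37 genes was 0.16, beside -0.08 over all genes. Of the 37, 23 were above 0, against 42.1% of all genes, and 0 was called, where 0.844% of all genes were called higher. Without 1G11-mock replicate 3 the median was 0.62, beside -0.05 over all genes. Of the 37, 32 were above 0, against 45.2% of all genes, and 2 were called, where 0.638% of all genes were called higher. Leaving out any other array gave medians from 0.27 to 0.45.

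**Figure D2:**
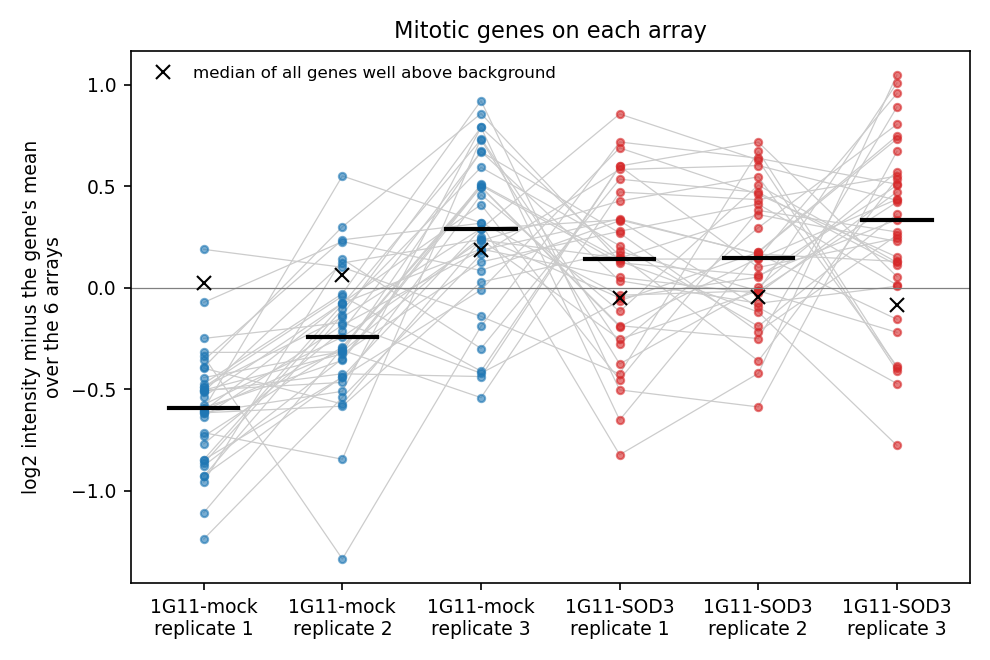
Log2 intensity of each of the 37 mitotic genes on each array, minus the mean of that gene over the 6 arrays (vertical axis). Points are genes joined by grey lines, black bars are the median of the 37 genes, and crosses the median of the 12435 genes well above background. The bars are at -0.59, -0.24 and 0.29 for 1G11-mock and 0.14, 0.15 and 0.34 for 1G11-SOD3.

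Promoters of G2 and M genes are known for 2 short elements, the cell cycle genes homology region (CHR), bound by the MuvB complexes with which B-Myb and FOXM1 act, and the CCAAT box, bound by NF-Y. Since the members moved together between arrays, their promoter windows, 250 bases before to 50 after the start of each gene (RefSeq, GRCm38.p6), were searched on both strands for the CHR letters TTTGAA or TTCGAA and for CCAAT, each counted whether or not it overlapped the other. Of the 40 genes, 34 had a window, and Tpx2, Kif20a, Cdc25c, Ccna2, Aurkb and Foxm1 had none in the table used. The CHR letters were in 25 of the 34 (73.5%), against 21.7% of the 27025 genes with a window, and CCAAT was in 25 of the 34 (73.5%), against 41.1%. The median log2 fold change was 0.34 for the 22 genes with the CHR letters and a probe outside the middle and 0.30 for the 9 without. For CCAAT it was 0.34 with the letters in 22 genes and 0.48 without them in 9. A match of letters is a description and not a binding site. Windows from 150 bases before to 30 after the start follow for the gene that rose outside the middle (Cdk1), a cyclin and an anaphase activator that read above 0 without a call (Ccnb2 and Cdc20), the gene with 10 spots (Bub1) and a gene of the middle (Cenpa), with the CHR letters and CCAAT, on either strand, in capitals.
Cdk1 (chr10:69352883-69353062, minus strand): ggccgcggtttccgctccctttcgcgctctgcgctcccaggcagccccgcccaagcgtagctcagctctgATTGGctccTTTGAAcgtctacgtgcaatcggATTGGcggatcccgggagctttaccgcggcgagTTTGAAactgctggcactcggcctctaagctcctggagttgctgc
Ccnb2 (chr9:70421525-70421704, minus strand): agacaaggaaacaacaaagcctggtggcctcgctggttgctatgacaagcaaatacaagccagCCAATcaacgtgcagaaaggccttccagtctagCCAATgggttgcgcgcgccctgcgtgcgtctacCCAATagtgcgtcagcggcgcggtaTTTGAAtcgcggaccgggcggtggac
Cdc20 (chr4:118437314-118437493, minus strand): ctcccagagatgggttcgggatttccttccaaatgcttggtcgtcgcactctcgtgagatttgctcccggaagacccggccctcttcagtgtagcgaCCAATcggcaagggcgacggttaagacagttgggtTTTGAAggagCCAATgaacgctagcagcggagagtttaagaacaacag
Bub1 (chr2:127831830-127832009, minus strand): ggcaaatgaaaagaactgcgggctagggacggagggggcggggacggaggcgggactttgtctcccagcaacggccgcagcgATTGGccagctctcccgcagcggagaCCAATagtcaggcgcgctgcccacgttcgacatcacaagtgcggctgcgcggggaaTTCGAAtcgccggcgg
Cenpa (chr5:30666736-30666915, plus strand): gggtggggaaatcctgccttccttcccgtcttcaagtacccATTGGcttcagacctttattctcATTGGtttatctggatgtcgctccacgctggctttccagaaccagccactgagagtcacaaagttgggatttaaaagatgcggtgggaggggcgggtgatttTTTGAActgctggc
Cdk1 had 2 copies of TTTGAA and Bub1 the variant TTCGAA just after its start, while Cdc20 had TTTGAA between its 2 CCAAT boxes.

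In the middle of the array, the 5 member probes were all higher in 1G11-SOD3 cells and all 3 1G11-SOD3 arrays lay above all 3 1G11-mock arrays, as they did for 26.9% of all 6435 probes there and 57.7% of the 1183 that were well above background on every array. Of the 5, 4 were called higher, against 11.9% of the probes there and 24.2% of those well above background. Their median was 2.19 (log2), beside 1.02 over the same 1183 probes.

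Cenpa, the histone variant that marks centromeres, read 10.74, 10.38 and 9.0 in 1G11-mock and 12.70, 11.88 and 12.71 in 1G11-SOD3. It rose by 2.39 ± 0.41 (adjusted p = 0.00958), and position adjusted by 1.35 ± 0.22 (adjusted p = 0.0100). Birc5, which has a further probe here, rose by 2.19 ± 0.23 (adjusted p = 0.00069), and position adjusted by 1.21 ± 0.24 (adjusted p = 0.0238).

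Bub1b, the checkpoint kinase BubR1, read 8.25, 8.59 and 7.88 against 10.81, 10.38 and 11.53 and rose by 2.67 ± 0.31 (adjusted p = 0.00117), although it was well above background on only 1 of the 1G11-mock arrays. Hmmr, a spindle protein that also binds hyaluronan, read 10.32, 10.99 and 10.14 against 12.30, 12.12 and 13.23 and rose by 2.06 ± 0.33 (adjusted p = 0.0064). Position adjusted, Bub1b gave 1.09 ± 0.29 (adjusted p = 0.0678) and Hmmr 1.13 ± 0.31 (adjusted p = 0.0713), so neither passed there. With the replicate number as a block they did pass, at adjusted p of 0.0325 and 0.0359. The Pttg1 probe of the middle gave 1.31 ± 0.44 (adjusted p = 0.174), and 0.57 ± 0.30 position adjusted (adjusted p = 0.304). Of the 5, 2 were thus called on position-adjusted values, where 6.42% of the middle probes well above background on all arrays were called higher, and 4 with the block, where 9.13% were.

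**Figure D3:**
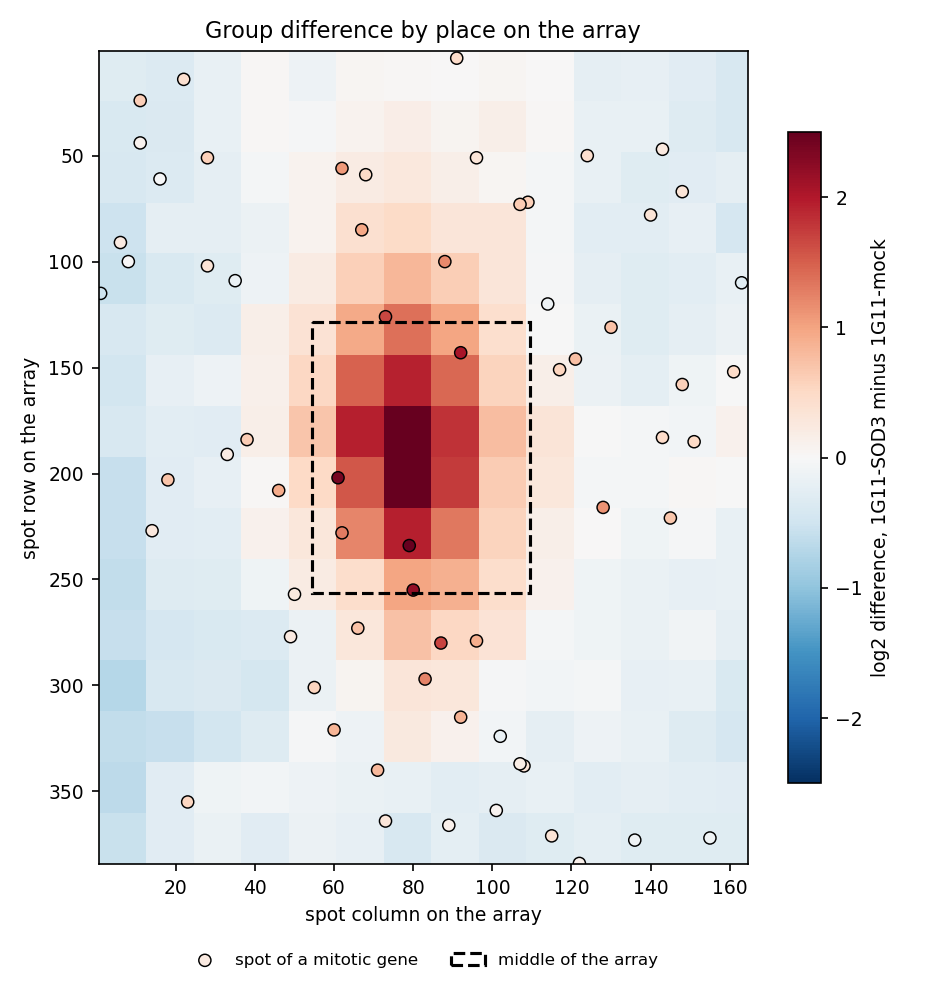
The array seen from above, with spot columns across and spot rows down. Coloured blocks are the median log2 difference (1G11-SOD3 minus 1G11-mock) of bright spots, circles are the 65 spots of mitotic genes in the same colours, and the dashed box is the middle. The 5 circles in the box are red, and blocks just outside it are red as well.

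The place of a spot went with its value beyond the box. Across the 51 member probes outside the middle, the log2 fold change correlated with the local difference of the neighbouring bright spots (Pearson r = 0.70), and over all 56 probes r was 0.89. These probes share the same 6 arrays, so the correlations describe them and carry no p. With position-adjusted values the correlation outside the middle was 0.18. The neighbours of 28 of the 37 genes read lower in 1G11-SOD3. Of these 28 genes 21 (75%) were above 0, against 24.8% of the genes well above background in such places. Set against their own neighbours, 33 of the 37 (89.2%) read higher, with a median of 0.54, against 47.9% of the genes well above background. The latter largely make up the neighbours, so their 2 shares follow mostly from that definition and test nothing. Of the 37 members, 33 were themselves well above background on every array.

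Bub1 shows how far spots of 1 sequence differed by place, since its probe was printed 10 times, always outside the middle. The difference between groups was lowest at 0.02 in a spot near the left edge and highest at 1.66 in a spot beside the box, with a median of 0.68. All 10 spots were above 0. Across the 10 spots the difference followed the neighbours (r = 0.94), and position adjusted it ran from 0.37 to 0.92.

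**Figure D4:**
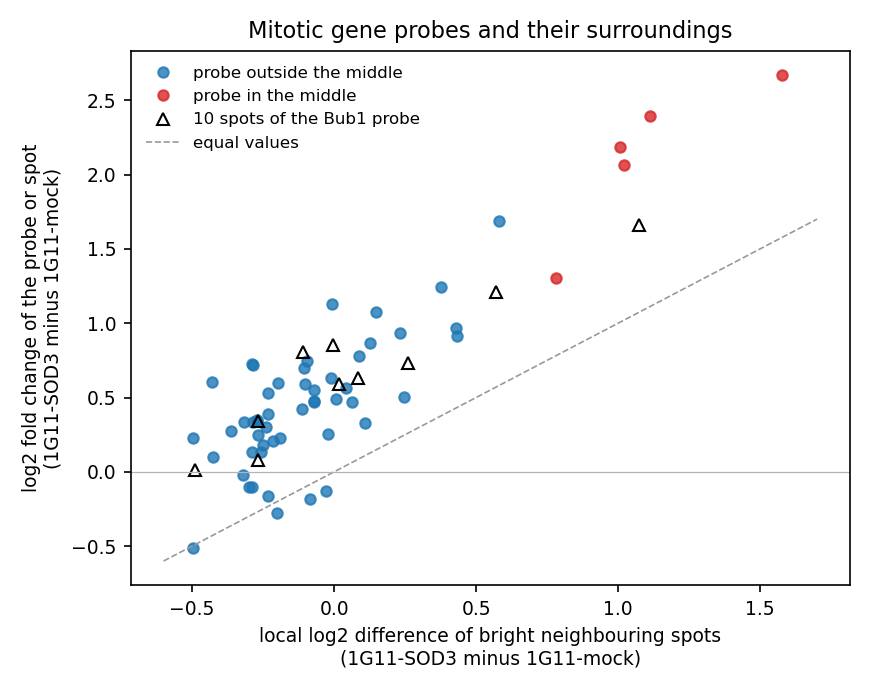
Log2 fold change of each of the 56 mitotic gene probes (vertical axis) against the log2 difference of bright neighbouring spots (horizontal axis), both 1G11-SOD3 minus 1G11-mock, with the 10 Bub1 spots as triangles and a dashed line for equal values. Among the probes, the 5 of the middle (red) lie farthest right, and most probes lie above the line.

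Of the genes with several probes, 12 in all, 3 had probes on both sides of 0 (Ube2c, Mki67 and, with a probe at background, Cdk1), and in 8 of the 12 the range between probes was narrower after position adjustment. Counted by probe, 2 of the 51 outside the middle were called higher, where 0.66% of all such probes were. They were the Cdk1 probe above and a Ccnb1 probe that lay below the box on the map. On position-adjusted values 1 of the 51, that Ccnb1 probe, was called, where 0.953% of all such probes were. With the replicate number as a block 2 of the 51 were, where 1.13% of all such probes were, the other being the dimmer Birc5 probe (1.30, adjusted p = 0.0193, and 0.0912 without the block). Since the reading of cyclin B1 turned on the probe, the sequences of the Ccnb1 probe that was called and of another that was not are given, with positions of the array annotation, whose genome build is not stated in the files. Both hold 1 reading frame with no stop codon.
Ccnb1 probe 1 (chr13:101551224-101551283): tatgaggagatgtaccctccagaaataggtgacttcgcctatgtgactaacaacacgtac
Ccnb1 probe 2 (chr13:101553449-101553508): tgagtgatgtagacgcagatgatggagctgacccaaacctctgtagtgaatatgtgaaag
Probe 1 starts at base 846 of the transcript and read 8.88, 9.16 and 9.03 in 1G11-mock and 10.86, 10.44 and 10.82 in 1G11-SOD3. It rose by 1.69 ± 0.23 (adjusted p = 0.00263), and position adjusted by 1.13 ± 0.24 (adjusted p = 0.0284). Probe 2 starts at base 532 and gave 0.53 ± 0.39 (adjusted p = 0.596), and 0.77 ± 0.29 position adjusted (adjusted p = 0.164). The brightest Ccnb1 probe, nearest the end of the transcript, gave 0.13, and 0.36 position adjusted. The neighbours of the 3 probes differed by 0.58, -0.23 and -0.26 in this order. For Cdk1, a probe that overlaps the called one on the genome was well above background on 0 of the 6 arrays, and the remaining one was above it on 1 1G11-SOD3 array, so neither gives a fold.

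Genes of the same machinery that are not among the 40 gave 3 calls, all higher. Over all genes outside the middle, 0.836% were called higher and 1.41% lower. Of 35 other kinetochore, centromere and passenger genes read outside the middle, 1 rose, Cenph, a subunit of the inner kinetochore, by 1.14 ± 0.23 (adjusted p = 0.0246), and their median was 0.39. Of 15 anaphase-promoting complex genes, 1 rose, Fbxo5, the inhibitor Emi1, by 1.54 ± 0.24 (adjusted p = 0.00634), with a list median of 0.10. Of 23 other spindle, midzone and cytokinesis genes, 1 rose, Spag5, astrin of the spindle, by 1.36 ± 0.26 (adjusted p = 0.0166), with a list median of 0.19. None of 17 cohesin, separase and condensin genes and none of 19 other G2 and M regulators was called, with medians of 0.03 and 0.18. No gene of these 5 lists fell. These 3 calls became 5 with the replicate number as a block, with Zwint and Ckap2l added, where 1.13% of all genes were called higher. Position adjusted, Cenph (1.04) and Spag5 (1.15) were still called, and Fbxo5 (0.86, adjusted p = 0.0775) was not. Ska1, a kinetochore protein that follows microtubule ends, was called as well (1.10, adjusted p = 0.0252). On that scale 1.15% of all genes were called higher.

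DNA replication and G1-S genes, the neighbouring step of the cell cycle, had the higher median. Of 20 read outside the middle, 4 rose, where 0.836% of all genes did. They were the replicative helicase subunits Mcm4 (2.07 ± 0.28) and Mcm2 (1.36 ± 0.27), the helicase partner Gins1 (1.95 ± 0.25) and Rrm2, a subunit of ribonucleotide reductase (1.29 ± 0.24), with adjusted p of 0.00192 to 0.0196. Position adjusted, 5 of the 20 were called higher, where 1.15% of all genes were. Mcm4 (1.16), Mcm2 (1.21) and Gins1 (1.41) stayed among them with smaller values. Rrm2 (0.94, adjusted p = 0.0632) was no longer among them. The replication licensing factor Cdc6 (1.27) and cyclin E1, Ccne1 (1.38, adjusted p = 0.0199), were added. The list median was 0.72, and 0.92 position adjusted, beside 0.34 and 0.53 for the mitotic genes. On single arrays these 20 genes deviated by -0.66, -0.48 and 0.03 in 1G11-mock and by 0.38, 0.61 and 0.18 in 1G11-SOD3. By these medians no 1G11-mock array reached the lowest 1G11-SOD3 array, whereas for the 37 mitotic genes replicate 3 did. The difference between the lists was not tested.

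Markers of other cell types were read on the same arrays, where 0.836% of all genes outside the middle were called higher and 1.41% lower. Of 12 fibroblast and mural cell markers 7 rose, led by the collagen Col1a1 (3.1), the smooth muscle actin Acta2 (2.62), the receptor Pdgfrb (2.39), the actin-binding protein Tagln (1.45) and the proteoglycan Lum, which was well above background on 0 of the 1G11-mock arrays and all 3 of the others. Their summed normalized intensity was 76881 to 78498 on the 1G11-mock arrays and 144161 to 373134 on the 1G11-SOD3 arrays, with 1 of the 12 well above background on no array. Of 16 endothelial markers Egfl7, a secreted endothelial factor, rose by 1.82 and Vwf, von Willebrand factor, fell by 1.65 on the log2 scale. Position adjusted, Egfl7 gave 1.00 (adjusted p = 0.0805) and was not called, while Vwf (-1.36, adjusted p = 0.0261) still was. The endothelial sum ran from 21690 to 32267 on the 1G11-mock arrays and from 15625 to 18696 on the 1G11-SOD3 arrays, and 8 of the 16 were well above background on no array. Among them the probes used for Cdh5, VE-cadherin, and Tek read background on all 6 arrays. Per the authors' methods, 1G11 cells were regularly stained for VE-cadherin to verify their endothelial origin. That staining reads protein, while the probe reads RNA. The receptor Kdr read 12.89 ± 0.11 and 12.39 ± 0.07 (mean ± SD) in the groups and Pecam1 8.51 ± 0.43 and 8.0 ± 0.30. Pecam1 was well above background on only 2 of the 1G11-mock arrays and 1 of the 1G11-SOD3 arrays. None of 12 epithelial markers (sum 69562 to 114021 and 47441 to 87314) and none of 12 leukocyte markers (22908 to 28698 and 22907 to 28073) was called, with 6 and 7 of them well above background on no array. These sums weigh the brightest markers most, so they do not compare the amounts of the cell types. The brightest epithelial marker, Krt19, had mean log2 intensities of 16.48 in 1G11-mock and 15.96 in 1G11-SOD3. For the leukocyte marker Itgam these were 14.20 and 14.19, for the fibroblast marker Col3a1 15.51 and 16.94 and for the endothelial marker Eng 13.81 and 12.76. The part of any of these markers in the values of the mitotic genes was not tested.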

How the data were processed

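Total RNA of 6 cultures was labelled with Cy3 and hybridized to 1-colour Agilent SurePrint Mouse G3 arrays. The authors deposited the scanner output, with spot intensity from Agilent Feature Extraction 10.7.3.1, and a table of log2 values that, per their methods, were corrected with normexp and quantile normalized. Per the labels, limma was used. Here mean intensity was corrected for the local background (normexp, offset 50), log2 transformed and quantile normalized, control spots and outlier-flagged spots were left out, and spots of a probe were averaged, with those of the middle apart. Genes were compared with limma 3.58.1 (R 4.3.3), with p-values adjusted by Benjamini-Hochberg over all probes. A gene outside the middle was represented by its brightest probe. For position-adjusted values, the median deviation of the 200 nearest bright spots was subtracted on each array before quantile normalization. Bounds use the lowest signal well above background.

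The members and lists were chosen with earlier results of these data known. The text names all members, Sod3, the genes of each list called outside the middle (at most 5 by size) and 4 endothelial markers. Zwint, Ckap2l, Ska1, Cdc6, Ccne1, Krt19, Itgam, Col3a1 and Eng were named after their values were seen. The p-values measure the spread between these 3 cultures a group. Same-numbered arrays, which share a slide column, deviated together (correlations 0.141, 0.144 and 0.236 over 15177 probes). The numbers were therefore used as pairs in the replicate block and in the comparison of same-numbered arrays. The main fit did not pair the samples. Whether the cultures were paired or only the slide column was shared cannot be told apart. The model was tried on simulated data with independent noise and planted changes larger than any difference of a member. That trial therefore says nothing on finding changes of the size reported here. The alternatives were other background corrections, normalizations, filters, variance and probe choices, position adjustment, the replicate block and leaving out each array. The number of arrays limits the precision. Figures were drawn with matplotlib 3.10.9 in Python 3.11.15.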

Additional observations from a re-analysis of the deposited data

How the results depend on the processing

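The median of the 37 genes outside the middle stayed above 0 under every alternative (0.16 to 0.62), as did all 5 probes of the middle. The single call outside the middle did not: the number of called members was 0 without background correction, with an offset of 16, with processed signals, with outlier spots kept, with a variance trend, with the mean of the probes of a gene and with position adjustment, also with the replicate block, which was added after seeing the data. It was 2 with cyclic loess and with the middle left out, 3 with scaling to the 75th percentile, and 0 to 2 with 1 array left out. In the middle, position adjustment gave 2 calls and a median of 1.13, also 1.13 with the replicate block, and processed signals gave a median of 1.42. The calls in the other pathway lists, 3 as reported, were 6 with processed signals, cyclic loess or the middle left out, 9 with scaling to the 75th percentile, 5 with the replicate block, and 1 to 6 with 1 array left out. On the values without position adjustment the replicate block changed no call of a member. With position adjustment it added Bub1b and Hmmr in the middle, 4 calls of the 5, and the dimmer Birc5 probe outside.

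Over all probes outside the middle, 327 were called higher and 593 lower. Those higher were 677 with processed signals, 216 with the mean of probes, 559 with position adjustment and the replicate block, and 156 to 332 with 1 array left out. Those lower were 392 with an offset of 16, 7244 with processed signals, 1079 with scaling to the 75th percentile, 356 with the middle left out, 367 with the mean of probes, and 291 to 524 with 1 array left out. Processed signals and scaling to the 75th percentile moved the median of all genes to -0.43 and -0.33, and the members lay 1.03 and 0.84 above it.

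Some uncalled members changed sign. Position adjustment, also with the replicate block, gave 0.074 for Bub3 and 0.27 for Spc25. Scaling to the 75th percentile gave 0.025 for Bub3 and 0.14 for Spc25. Spc25 was also 0.62 with processed signals, 0.045 with cyclic loess and 0.095 with the middle left out. Ube2c was 0.17 with processed signals and 0.21 with the mean of probes, and Mki67 0.18 with the latter. With 1 array left out, values ran from -0.028 to 0.68 for Anln, -0.36 to 0.037 for Bub3, -0.10 to 0.40 for Ccnb1, -0.53 to 0.049 for Cdc25b, -0.24 to 0.62 for Cdc25c, -0.69 to 0.11 for Cenpe, -0.26 to 0.53 for Kif4, -0.068 to 0.63 for Mad2l1, -0.69 to 0.25 for Mki67, -0.13 to 0.59 for Nuf2, -0.12 to 0.61 for Nusap1 and -0.19 to 0.31 for Spc25. The cause of these moves was not tested. Of the genes called or near the threshold, Cdk1 lost its call in 13 alternatives, with log2 values of 0.58 to 1.39.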
